A study of Mus musculus with 2 samples.

Results

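The miRNAs described here are 10 genes that lie around Rtl1 in the imprinted Dlk1-Dio3 region of mouse chromosome 12: Mir673, Mir493, Mir337, Mir540, Mir665, Mir431, Mir433, Mir127, Mir434 and Mir136. They were chosen by name and position, through the Ensembl identifier of each row, and 9 of the 10 have a row among the 1973 miRNA gene rows of each library. Mir136 has none and is treated separately. The libraries were made from RNA below 30 nt from intestine of B6NCrl embryos at embryonic day 16.5, healthy, with males and females pooled. Both belong to 1 group, so the design holds no treated or mutant arm. Replicate 2 came from a pool of 41 embryos, while the labels do not say how many embryos replicate 1 holds. Nothing in the labels splits the tissue into cell types, and in such bulk samples fewer cells of a type and less RNA per cell cannot be told apart.

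The Dlk1-Dio3 region is expressed according to parental origin. Its protein-coding genes, among them Dlk1 and Rtl1, are read from the paternal chromosome, while long noncoding RNAs and the miRNAs embedded in them are read from the maternal chromosome. Rtl1 encodes a protein derived from a retrotransposon that is needed in the placenta and in fetal muscle. Several miRNAs of the region lie on the strand opposite to Rtl1, and because they pair with its transcript without mismatch they are known in mouse to direct its cleavage. The alleles cannot be told apart in these counts.

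On mm10, with GENCODE M21 annotation, the cluster runs on the plus strand over 23399 bases from Mir673 to Mir136. Mir673 (chromosome 12, 109571990 to 109572080) starts 263 bases after the end of Meg3, a maternally expressed long noncoding RNA. Mir493 (109580233 to 109580315), Mir337 (109585789 to 109585885), Mir540 (109586080 to 109586146) and Mir665 (109586314 to 109586407) follow. The last of them ends 2785 bases before the GENCODE gene model of Rtl1, which lies on the minus strand from 109589193 to 109600330. The RefSeq gene table places Rtl1 over a longer span, 109564900 to 109604418, so these 5 genes are outside Rtl1 in the first annotation only. Mir431 (109590447 to 109590537), Mir433 (109591715 to 109591838), Mir127 (109592846 to 109592915), Mir434 (109594506 to 109594599) and Mir136 (109595327 to 109595388) all lie opposite the coding exon of Rtl1 (coding bases 109590172 to 109595403). The next long noncoding RNA, Rian, begins 8551 bases after Mir136.

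The mature arms of the 4 counted genes opposite Rtl1 are printed here because these genes hold most of the reads of the cluster; capitals mark the seed, bases 2 to 8, which sets most of the pairing with target RNAs (RefSeq sequences, build GRCm38.p6).
mmu-miR-431-5p: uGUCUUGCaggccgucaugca
mmu-miR-431-3p: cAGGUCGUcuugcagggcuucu
mmu-miR-433-5p: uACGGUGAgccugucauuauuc
mmu-miR-433-3p: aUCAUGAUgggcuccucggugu
mmu-miR-127-5p: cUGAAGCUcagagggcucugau
mmu-miR-127-3p: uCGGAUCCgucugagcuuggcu
mmu-miR-434-5p: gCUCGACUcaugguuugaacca
mmu-miR-434-3p: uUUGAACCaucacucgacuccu

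All 10 genes matched a RefSeq hairpin, with 20 mature arms of 19 to 26 bases. The arms carried 20 different seeds, so no pair of genes in the cluster shares one. Of the 20 seeds, 18 occurred in no other mature sequence of the table, which holds 1738. The seed of miR-673-5p also occurs in miR-6985-3p, whose gene stood at 0.675 CPM, and that of miR-540-3p in miR-6915-5p, whose gene has no row. No arm had an exact copy in another of the 1005 hairpins. The longest run that each arm shared with a hairpin elsewhere was 8 to 14 bases.

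Repeats occurred within the hairpins instead. In Mir431 the arms share a run of 10 bases, GUCUUGCAGG, which contains the whole seed of the 5p arm, so the letters of that seed also stand inside the 3p arm. In Mir434 the arms share 9 bases, UUUGAACCA, which contain the seed of the 3p arm, and the hairpin repeats a run of 13 bases, UGGUUUGAACCAU, at 2 places. The other 8 hairpins had shared runs of 3 to 6 bases between their arms. Among these, the hairpin of Mir540 also repeats a run of 10 bases, GGCCAAGGGU, at 2 places. The deposited counts are per hairpin gene, so the reads of the arms are summed and which arm was read is not known here.

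The reverse complement of each mature arm was sought in the GENCODE transcript of Rtl1 (6358 bases, of which 5232 are coding). All 10 arms of Mir431, Mir433, Mir127, Mir434 and Mir136 had exactly 1 full-length match there, in every case in the coding part, and none of the 10 arms of the other 5 genes had one. The matches follow from the genes' position on the opposite strand. The sites of Mir127 are shown as the example, written 5′ to 3′ on the Rtl1 strand with the match to the seed in capitals.
Rtl1 site of miR-127-3p (chr12:109592888-109592909, minus strand): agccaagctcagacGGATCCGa
Rtl1 site of miR-127-5p (chr12:109592854-109592875, minus strand): atcagagccctctgAGCTTCAg
The first begins at coding base 2495 of Rtl1 and the second at coding base 2529. The sites of Mir434 lie nearer the start of the coding sequence, at coding bases 818 and 855, and those of Mir433 (3602 and 3654) and Mir431 (4881 and 4925) further along it.

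Depth was 5680764 counts on the strand of miRNA genes in replicate 2 and 4261976 in replicate 1. Levels are given as counts per 1000000 of these (CPM), with the mean ± SD of the libraries (n = 2), and were not divided by length, since a read stands for a whole mature-sized RNA. They are levels of counts, not of molecules in the tissue, because ligation and PCR favour some sequences. A list of 10 miRNAs of intestinal epithelium was detected in full and held 12.3% of the counts in replicate 2 and 10.8% in replicate 1. A list of 6 miRNAs of smooth muscle and mesenchyme held 17.8% and 18.6%. Most of that came from Mir143 alone, at 170594 CPM in replicate 2 and 177010 CPM in replicate 1. Endothelium, a list of Mir126a alone, held 3.36% in replicate 2 and 3.08% in replicate 1. The remaining lists were small, given here for replicates 2 and 1. Neural miRNAs held 0.176% and 0.153%, with 3 of 8 rows at 0 (Mir124a-2, Mir124a-3 and Mir9-2). Skeletal and cardiac muscle held 0.0121% and 0.00992%, with 2 of 8 rows at 0 (Mir133a-1 and Mir133a-2). Blood held 0.129% and 0.149%, with 1 of 6 rows at 0 (Mir142b). Liver (Mir122) held 0.0448% and 0.0994%, and pancreas 0.000475% and 0.000164%. Reads with several mapping loci (25.7% and 26.2% of all reads) are in no row. A row at 0 is therefore no proof that its miRNA was absent, and shares and ranks cover the counted reads only. How much this lowered any list was not tested.

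The 9 counted genes together held 1.40% of the gene counts in replicate 2 and 1.59% in replicate 1 (1.496% ± 0.137, n = 2). All 9 were detected in both libraries, and 8 of them had a mean of 100 CPM or more (88.9%), against 9.63% of all gene rows. In the distal cluster of the same region, described below, 20 of 34 rows (58.8%) reached that level, so it is not particular to the members. Their median level was 776 CPM, against 0 CPM over all 1973 rows, since most rows have no counts. The genes opposite Rtl1 held 1.28% ± 0.124 of the gene counts and those before it 0.219% ± 0.0129, a ratio of 5.68 in replicate 2 and 5.99 in replicate 1. That ratio (5.84 ± 0.223, n = 2) exceeded 1 by far more than the spread between the replicates. It is a ratio of sums in which Mir127 alone held a mean of 49.3% of the member counts. Not every gene opposite Rtl1 stood above every gene before it: Mir337, before Rtl1, had a mean of 1226 CPM and Mir433, opposite it, 776 CPM.

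**Figure D1:**
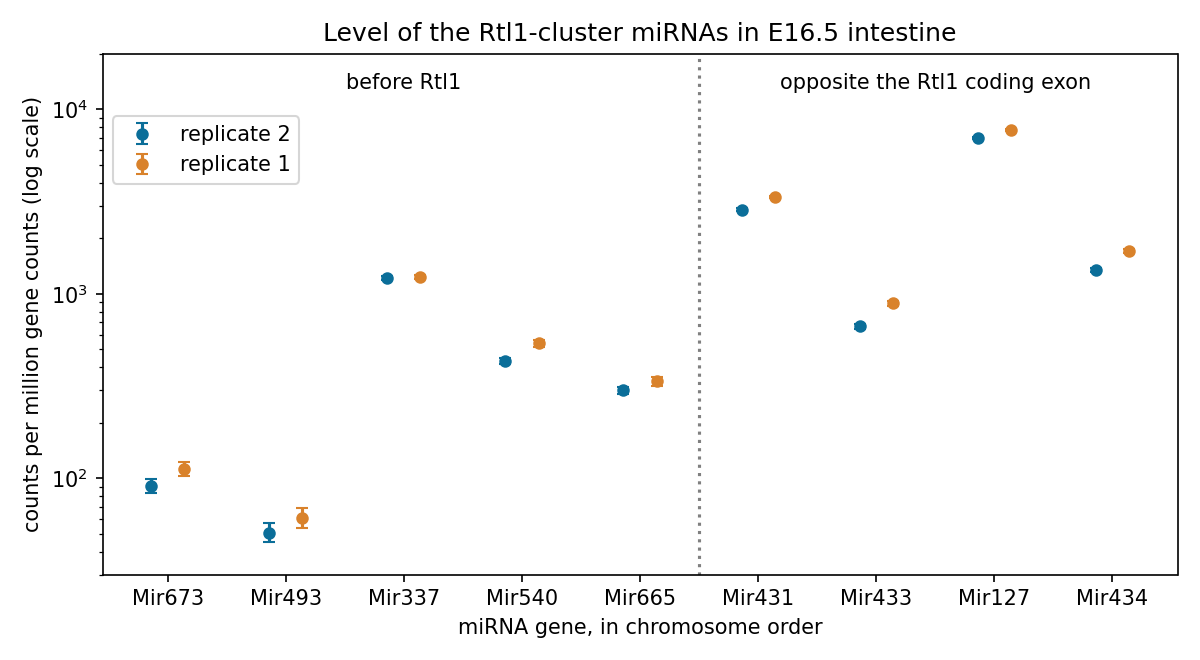
CPM (log axis) of the 9 counted genes in chromosome order, replicate 2 in blue left of replicate 1 in orange. Bars are exact 95% intervals of counting error. Mir127 and Mir431 stand highest and Mir493 lowest in both replicates.

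Mir127, whose miRNA pairs with Rtl1, was the most abundant gene of the cluster, with 39889 counts in replicate 2 and 32881 in replicate 1. This is 7022 CPM (exact Clopper-Pearson 95% interval 6953 to 7091) in replicate 2 and 7715 CPM (7632 to 7798) in replicate 1, or 7368 ± 490.2 CPM. It held 50.2% and 48.4% of the counts of the cluster in replicates 2 and 1, and ranked 29 of all gene rows, between Mir192, an epithelial miRNA of the intestine (7510 ± 8.79 CPM), and Mir652 (6854 ± 737 CPM). Its range over the replicates overlapped that of each of these neighbours, so Mir127 differed from neither beyond the spread.

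Mir431, which lies 2 genes before Mir127 and whose miRNA also pairs with Rtl1, was second, at 2860.35 CPM in replicate 2 and 3347 CPM in replicate 1 (3104 ± 344 CPM, rank 54). Mir127 and Mir431 together made up 70.6% of the counts of the cluster in replicate 2 and 69.5% in replicate 1. Mir434, the last counted gene of the cluster, had 1349 CPM in replicate 2 and 1700.4 CPM in replicate 1 (1525 ± 248 CPM). Mir433, between Mir431 and Mir127, was the lowest of the genes opposite Rtl1, at 665 CPM in replicate 2 and 887 CPM in replicate 1 (776 ± 156 CPM). Although it lies 1007 bases from Mir127 and 1177 bases from Mir431, Mir127 stood 10.6 times above it in replicate 2 and 8.70 times in replicate 1 (9.63 ± 1.31), and Mir431 4.30 and 3.77 times (4.04 ± 0.370). Levels opposite Rtl1 therefore did not follow position: along the plus strand they ran high, low, highest and intermediate in both libraries.

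The 5 genes before Rtl1 fell into a higher group of 3 and a lower pair. Mir337, Mir540 and Mir665 lie within a short stretch, with gaps of 194 and 167 bases between them. Mir337 was the highest of the 5, at 1222 CPM in replicate 2 and 1230.4 CPM in replicate 1 (1226 ± 5.94 CPM), the smallest SD relative to the mean among the members when CPM is taken over total counts. With the TMM library sizes used to compare the replicates, Mir127, Mir665 and Mir431 lay closer between the libraries than Mir337. Mir540 had 432 CPM in replicate 2 and 538 CPM in replicate 1 (485 ± 75.3 CPM), and Mir665 had 299 and 335 CPM (317 ± 25.5 CPM). Each of these neighbours differed from the next by more than the spread: Mir540 stood at 0.395 ± 0.0595 of Mir337, and Mir665 at 0.658 ± 0.0496 of Mir540.

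The pair nearest Meg3 was lower. Mir673 had 91.0 CPM in replicate 2 and 112 CPM in replicate 1 (102 ± 15.0 CPM), and Mir493 had 50.7 and 60.8 CPM (55.7 ± 7.12 CPM), from 288 and 259 counts. Mir493 was the lowest of the 9 genes, and Mir127 was 133 ± 8.17 times as abundant. The step from Mir493 to Mir337, over a gap of 5473 bases, was 24.1 times upward in replicate 2 and 20.2 times in replicate 1, and was the steepest between members that follow each other on the chromosome. Other rows that lie between members, such as Mir3070a between Mir665 and Mir431, are left out of these steps.

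The order from high to low was Mir127, Mir431, Mir434, Mir337, Mir433, Mir540, Mir665, Mir673 and Mir493, the same in both libraries for all 9 genes. No neighbours in this order overlapped in their ranges over the replicates. The closest were Mir434 and Mir337, whose ratio was 1.10 in replicate 2 and 1.38 in replicate 1, and the widest gap was 3.14 ± 0.211 times between Mir665 and Mir673.

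Hairpin properties were set beside the levels as a description. Predicted folding energy (RNAfold) lay between -49.4 kcal/mol for Mir337 and -35.1 kcal/mol for Mir127 among the 9 counted hairpins, which are 67 to 124 bases long. Mir127, the most abundant, thus had the weakest predicted fold, while Mir493, the least abundant, had the second most stable at -45.0 kcal/mol. Per base the order differs, with -0.501 kcal/mol for Mir127, -0.542 for Mir493, -0.610 for Mir540 as the most stable and -0.361 for Mir433 as the least. GC content was 57.1% in Mir127 and 53.0% in Mir493, within a range of 45.7% (Mir434) to 61.5% (Mir673).

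Mir136 is known, like Mir127, to pair with Rtl1, but its identifier is not among the rows and its locus begins 297 bases past the last base of the interval that defines the cluster. The locus is covered by a row annotated in GENCODE M21 as Mir3071, a miRNA on the minus strand (109595318 to 109595397), which held 2428 counts in replicate 2 and 1676 in replicate 1, or 427 and 393 CPM (410.3 ± 24.2 CPM). The counts were made with GENCODE M4, where this identifier has version 1 against version 2 in M21, and the strand of version 1 is not given in the sources used here. The mature sequences show why the strand matters, with seeds in capitals.
mmu-miR-136-5p: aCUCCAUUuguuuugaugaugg
mmu-miR-3071-3p: aUCAUCAAaacaaauggagucc
They overlap by 20 bases and are complementary over all of these, so only the strand of a read separates them. The counts of this row were assigned to neither gene here and are in no level or sum of the members. The row is counted among the other proximal and middle rows in the share of the region given below. On the strand opposite to that of the row there were 0 reads in replicate 2 and 2 in replicate 1.

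Of the other rows inside the interval, Mir770, which lies within Meg3, had 82.7 CPM in replicate 2 and 91.7 CPM in replicate 1. Its range overlaps that of Mir673. Mir3070a had 18 and 13 counts (3.17 and 3.05 CPM). Mir3070b and Mir432 had 0 counts in both libraries, which allows up to 0.528 CPM in replicate 2 and 0.704 CPM in replicate 1 at a one-sided limit of 3 counts, while the two-sided exact 95% intervals reach 0.649 and 0.866 CPM. Intervals and this limit cover counting error only. Beyond Mir136, the middle genes Mir341 (587 ± 9.32 CPM) and Mir370 (330.1 ± 49.8 CPM) stood in the range of the members, while Mir1188 had 33 counts in replicate 2 and 15 in replicate 1 and Mir882 had 0 in both.

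The distal cluster of the same imprinted region, which begins at Mir379, 113671 bases after Mir136, is the group most like this one. Of 40 listed distal genes, 34 have a row on chromosome 12, and 31 of these were detected in both libraries. The members held 26.2% of the counts of the listed genes of the region in replicate 2 and 26.9% in replicate 1 (26.5% ± 0.466), while the distal genes held 3.80% and 4.19% of all gene counts. The median level was 776 CPM over the 9 members and 189 CPM over the 34 distal rows, with ranges of 55.7 to 7368 CPM and 0 to 9499 CPM. These lists were drawn differently. The distal list keeps rows at 0, such as Mir453 and Mir654. The 4 other rows inside the interval of the members, at 0 to 87.2 CPM, are left out of the member list. How much this widened the difference in medians was not tested. Mir127 stood below the most abundant distal gene, Mir411, at 0.766 of its level in replicate 2 and 0.784 in replicate 1, and above Mir487b (1.14 ± 0.0337 times) and Mir379 (1.64 ± 0.107 times). The lowest distal genes with any counts were Mir1197 (4 counts in replicate 2 and 3 in replicate 1), Mir544 (11 and 0) and Mir299b (15 and 14).

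**Figure D2:**
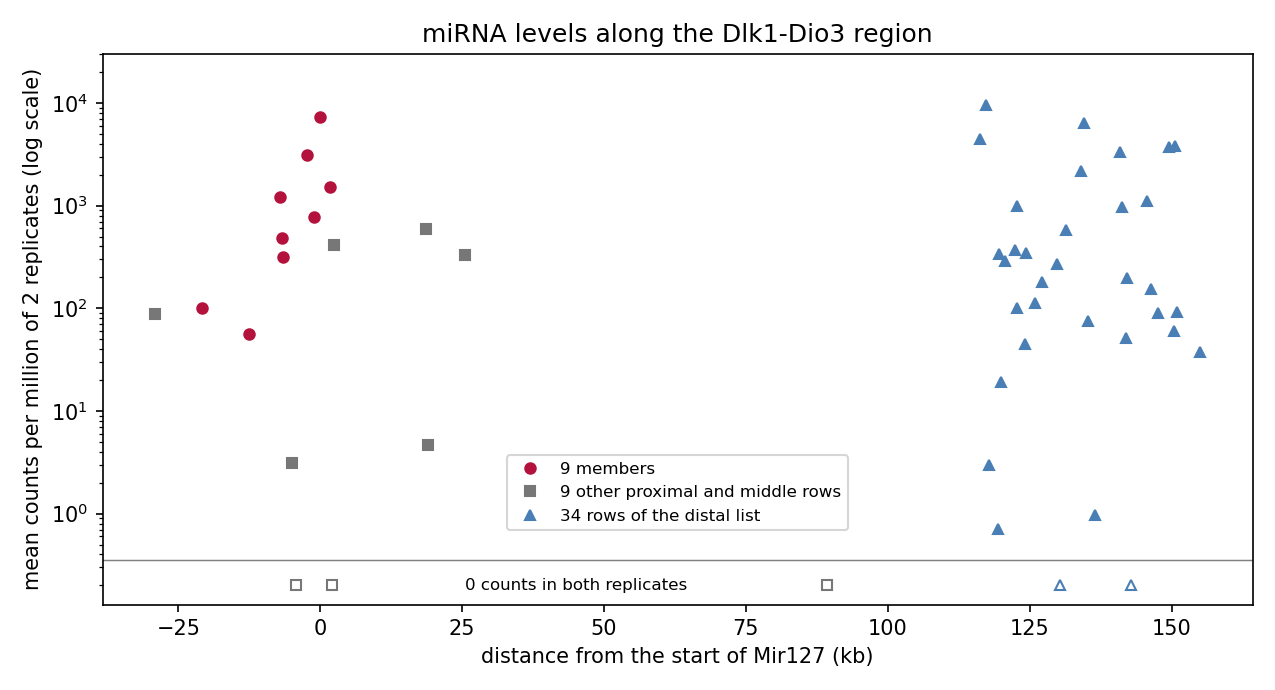
Mean CPM of both replicates (log axis) against distance in kb from the start of Mir127, for 9 members (red circles), 9 other proximal and middle rows (grey squares) and 34 distal rows (blue triangles), with genes at 0 counts as open symbols at the foot. Members peak at Mir127 (7368 CPM), a level within the range of the distal genes.

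The share of the region depends on strand. Opposite-strand reads at 4 distal rows (Mir299b, Gm25252, Gm25750 and Gm24321) numbered 3577 to 25397 in replicate 2 and 2881 to 20822 in replicate 1, and are outside these values. With both strands counted for every row from Mir770 to Mir3072, the members held 22.5% of the region. At the members themselves opposite-strand reads were 0 in both libraries except at Mir337 (23 in each) and Mir434 (1 in replicate 2 and 0 in replicate 1).

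Replicate 2 was then set against replicate 1, with TMM scaling (edgeR), which corrects for differences in composition between libraries. Of all 364 genes with at least 20 counts summed, an exact two-sided binomial test with Benjamini-Hochberg adjustment called 51.9% in either direction, 24.5% higher in replicate 2 and 27.5% higher in replicate 1. All 9 members were tested. In 1 of them replicate 2 was higher, in 4 replicate 1 was higher, and 4 missed the threshold, a share called in either direction close to that background. The test compares these libraries and covers counting error only, not the spread between pools of embryos.

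Mir433 was the member that differed most, with a log2 ratio of replicate 2 to replicate 1 of -0.28 (counting SE 0.03, adjusted p of the exact test 6.23e-17), followed by Mir434 (-0.20), Mir540 (-0.19) and Mir431 (-0.10), all higher in replicate 1. Mir337 was higher in replicate 2 (log2 ratio 0.12, adjusted p of the exact test 2.20e-05) but had a log2 ratio of -0.01 with total counts as library sizes. Mir673 (-0.17), Mir493 (-0.13), Mir665 (-0.03) and Mir127 (-0.01) did not pass. The call of Mir127 depended on the library sizes. With total counts it was higher in replicate 1 (log2 ratio -0.14, adjusted p of the exact test 1.30e-35). With no filter on low counts it was called higher in replicate 2 (0.034), and with DESeq2 size factors its ratio was 0.01, not past the test. Mir673 and Mir665 were higher in replicate 1 with total counts (adjusted p of the exact test 0.0024 and 0.0034). Across all tested genes, 39.6% had a larger absolute log2 ratio than Mir433, and 97.3% a larger one than Mir127. Taken on CPM over total counts, not on TMM sizes, the SD of the members was 0.484% to 20.2% of their mean. Its median was 12.8%, against a median of 11.4% over the tested genes.

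By position, the log2 ratios of replicate 2 to replicate 1 had a median of -0.15 over the 4 genes opposite Rtl1, of which 3 were higher in replicate 1, and of -0.13 over the 5 genes before it, of which 1 was higher in each replicate. The median over all members was -0.13, against -0.17 over 30 tested distal genes, of which 6 were higher in replicate 2 and 18 in replicate 1, and -0.02 over all tested genes, of which 24.5% were higher in replicate 2 and 27.5% in replicate 1. When total counts replaced TMM sizes, every log2 ratio was 0.13 lower: 7 members were then higher in replicate 1 and 0 in replicate 2, beside 45.1% and 12.6% of all tested genes (57.7% in either direction). With no filter on low counts, 2 members were higher in replicate 2 and 4 in replicate 1, beside 14.7% and 10.8% of 716 genes (25.4% in either direction). With a minimum of 1.5-fold, 0 members were called in either direction, beside 2.47% of tested genes higher in replicate 2 and 8.52% higher in replicate 1 (11% in all). A shift of every log2 ratio through the library sizes leaves the ratios among the members the same. Over total counts, Mir122, a liver miRNA, was also higher in replicate 1 (448 CPM in replicate 2 and 994 CPM in replicate 1). So were the lists of smooth muscle and mesenchyme (17.8% and 18.6%) and of blood (0.129% and 0.149%). The lists of epithelium (12.3% and 10.8%), endothelium, neural miRNAs, skeletal and cardiac muscle, and pancreas were higher in replicate 2. With TMM sizes Mir143, most of the mesenchyme list, was higher in replicate 2 (log2 ratio 0.08). The part of these differences in the result was not tested.

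**Figure D3:**
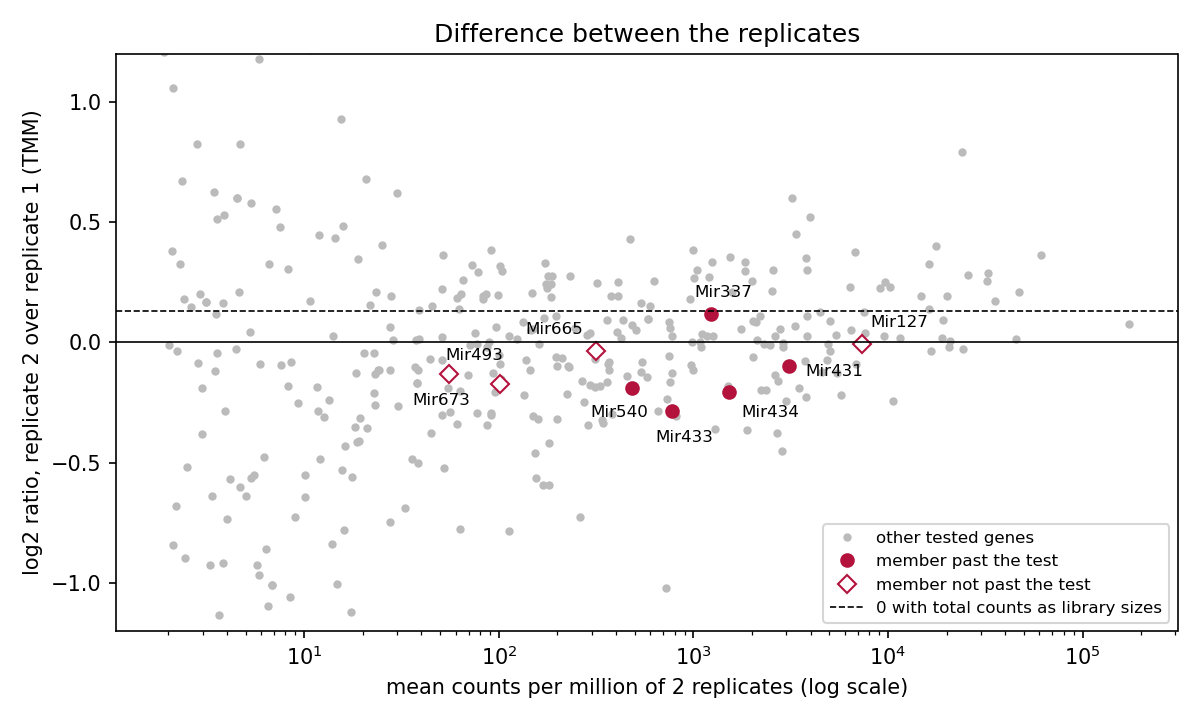
Log2 ratio of replicate 2 to replicate 1 with TMM scaling against mean CPM (log axis) for the tested genes, members in red (filled when past the test, open when not), other genes in grey. The dashed line marks a ratio of 0 under total counts, and 16 genes lie outside the plotted range. The members lie between -0.28 (Mir433) and 0.12 (Mir337).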

How the data were processed

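The values deposited by the authors are raw counts of reads for each miRNA gene, without normalization; the readme files name mm10 and GENCODE M4. For the aligner and counter, the sources used here give no name. The tables hold 1973 gene rows and 3 columns of counts; the per-strand columns sum to the first in every row, and the column on the strand of the gene was used. In replicates 2 and 1, 17.2% and 19.5% of reads were unmapped, 25.7% and 26.2% had several mapping loci, 2.88% and 3.69% hit no miRNA gene and 0 were ambiguous; none of these entered totals or tests. Names and positions came from GENCODE M21 (1894 identifiers matched) and sequences from RefSeq. One listed distal symbol maps to another chromosome and was left out.

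With 1 group, the quasi-likelihood test of edgeR had no contrast, and no likeness of patterns across samples was computed. TMM factors came from edgeR 4.0.16; intervals are exact 95%. The exact binomial test (scipy 1.17.1, prior of 0.5 counts, adjusted p threshold 0.05) was tried on simulated counts. These held counting error only and known library sizes, so the trial cannot show how the test behaves under spread between pools. Folds used RNAfold 2.7.2. Named genes were all members, other rows of the interval, the 3 highest and 3 lowest detected distal genes, 4 middle genes and the rank neighbours of Mir127. Members, lists and tests were chosen with earlier results of these data known. The labels call the libraries biological replicates; with n = 2, the SD is imprecise. Alternatives were unstranded counts, each replicate alone, Mir143 left out of the total, DESeq2 1.42.0 size factors, total counts, minimums of 1 and 100 counts, a prior of 5 counts and a 1.5-fold minimum.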

Additional observations from a re-analysis of the deposited data

Results flagged for a closer look

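The levels leave out reads on the strand opposite to the gene. Such reads were above the limit of 3 counts at 1 of the 9 counted genes. At Mir337 they numbered 23 in replicate 2 and 23 in replicate 1, or 0.330% and 0.437% of its reads on both strands. GENCODE M21 and RefSeq place Mir3544, which has no row here, on the other strand of the same locus. The arms shown here, with seeds in capitals, overlap by 21 bases and are complementary over all of them.
mmu-miR-337-3p: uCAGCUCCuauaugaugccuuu
mmu-miR-3544-5p: aGAAAGGCaucauauaggagcug
Whether these reads come from Mir3544 was not tested.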

How the results depend on the processing

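The order of the 9 members held in both libraries and with unstranded counts. With Mir143 left out of the total, the members held 1.81% of the gene counts, because the total is smaller. Their share of the region was 25.8% with unstranded counts, and 22.5% with all rows from Mir770 to Mir3072 counted on both strands, an alternative chosen after seeing the data. With each replicate left out in turn, the share of gene counts was 1.40% to 1.59% and the share of the region 26.2% to 26.9%. The ratio of genes opposite Rtl1 to those before it was 5.68 to 5.99, and the number of members in the same order 9 to 9. With n = 2 these are the values of each library alone, already given above, so they are no further check. Members called higher in replicate 1 numbered 7 with total counts and 0 with a 1.5-fold minimum, against 4. The shares of all tested genes called so were 45.1% and 8.52%, against 27.5%. Members called higher in replicate 2 numbered 0 with total counts, 2 with no filter on low counts and 0 with a 1.5-fold minimum, against 1. The shares of all tested genes were 12.6%, 14.7% and 2.47%, against 24.5%, where the 14.7% also covers genes with fewer than 20 counts summed. Log2 ratios changed sign for Mir337 with total counts (-0.0099), for Mir127 with DESeq2 size factors (0.012) and with no filter (0.034), and for Mir665 with no filter (0.0057). Each of these settings shifts the ratios of all 9 members alike through the library sizes, so the sign changed where a ratio was smaller than the shift. No paired analysis was possible because both libraries belong to 1 group. With n = 2, the lowest members, Mir493 and Mir673, rest on 259 to 517 counts per library.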
